A study of Mus musculus with 8 samples.

Results

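The Hox genes encode homeodomain transcription factors that lie in 4 clusters, Hoxa, Hoxb, Hoxc and Hoxd, and are described here in cultured keratinocytes of the mouse, which build the epidermis. The members are the probe sets whose platform annotation gives a single gene symbol of these clusters. There were 37 such probe sets of 22690 on the array, for 31 of the 39 Hox genes that RefSeq lists, and 5 genes had more than 1 probe set. A further 3 probe sets annotated to several Hox genes and 1 annotated to an antisense transcript were not members. The other Hox genes were not analysed here.

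All cells had been infected with an empty retrovirus, which carries no introduced gene. Biotinylated cRNA made from total RNA was hybridised to Affymetrix arrays. The 8 arrays are 2 of untreated cells and 1 each at 20, 40, 60, 120, 180 and 240 min after addition of tamoxifen, which binds estrogen receptors. Strain, age and body site of the skin, and whether the arrays came from separate cultures, are not given in the sources used here, so a p-value speaks only of how these arrays vary, which may be technical. A description shared by all samples mentions tamoxifen, and the titles were followed for the 2 untreated arrays. Array medians lay between 192 and 198 intensity units. The number of arrays limits the precision.

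Along each cluster, genes of low paralog number are expressed towards the head and genes of high paralog number towards the tail and the ends of the limbs, so the set of Hox genes a cell transcribes records its position in the body. In adult skin this record is best known in dermal fibroblasts, and Hoxc13 is known for its part in hair and nail. Hox proteins bind DNA together with the cofactors Pbx and Meis, and silent Hox clusters are held by Polycomb proteins over stretches rich in CG dinucleotides.

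The value table gives no detection calls, so a floor was set from 158 probe sets of genes that a keratinocyte should not transcribe: 72 of sensory receptors, the others of genes restricted to liver, pancreas, germ cells, brain, eye, heart and the like. The floor of an array was the 95th percentile of this panel, and it lay between 171 and 194. Probe sets of Ins2, Mbp, Acta1 and Wap, all members of the panel, were themselves above it on all 8 arrays, so a value above the floor is not proof of a transcript. Intensities of different probe sets are not on a common scale, and levels are set only against the floor or against the same probe set on another array.

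Of the 37 Hox probe sets, 10 were above the floor on all 8 arrays, 6 on some arrays and 21 on none. They stood for 8 of 31 genes (25.8%): Hoxa3, Hoxa5, Hoxa7, Hoxa9, Hoxb2, Hoxb4, Hoxc6 and Hoxc8. Over all probe sets with a single symbol the share was 49.6%, and over all genes it was 54.5%. By cluster, the genes above the floor were 4 of 9 in Hoxa, 2 of 9 in Hoxb, 2 of 6 in Hoxc and 0 of 7 in Hoxd. By paralog number, 2 of 6 genes in groups 1 to 3, 5 of 12 in groups 4 to 8, 1 of 4 in group 9 and 0 of 9 in groups 10 to 13 were above it on all arrays. Of paralog groups 2 to 9, each had exactly 1 gene above the floor on all 8 arrays. Another 5 genes, Hoxb6, Hoxb9, Hoxc4, Hoxc9 and Hoxc13, were above it on some arrays, and 18 on none.

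**Figure D1:**
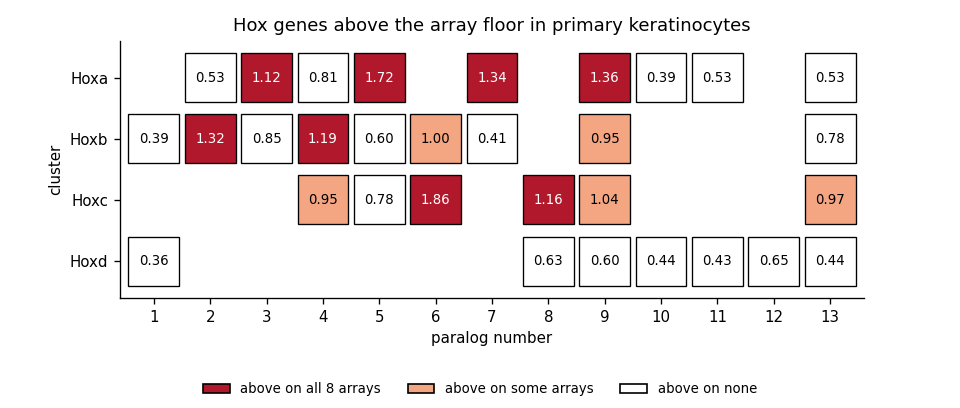
Map of the 31 Hox genes analysed, by cluster (rows) and paralog number (columns); the number in a box is the mean intensity over the 8 arrays divided by the mean floor, for the probe set with the highest such ratio. Dark boxes, the 8 genes above the floor on all arrays, run from paralog 2 to 9 in Hoxa, Hoxb and Hoxc, and the 7 Hoxd genes analysed all lie below it.

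The upstream sequences of genes on both sides of the floor are shown because Hox control regions are known for their CG dinucleotides. The 250 bases before the RefSeq start site (build GRCm38.p6) are given 5′ to 3′ for Hoxa5 and Hoxb4, above the floor on all arrays, and for Hoxd13, above it on none. Capitals mark each CG dinucleotide. They lie at chr6:52204588-52204837 (Hoxa5, minus strand), chr11:96318017-96318266 (Hoxb4, plus strand) and chr2:74667975-74668224 (Hoxd13, plus strand).
Hoxa5: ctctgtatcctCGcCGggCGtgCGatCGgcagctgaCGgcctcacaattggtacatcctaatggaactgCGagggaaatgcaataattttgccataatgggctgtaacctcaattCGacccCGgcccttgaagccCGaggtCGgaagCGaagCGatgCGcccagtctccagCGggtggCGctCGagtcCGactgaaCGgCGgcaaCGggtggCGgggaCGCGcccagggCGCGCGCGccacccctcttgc
Hoxb4: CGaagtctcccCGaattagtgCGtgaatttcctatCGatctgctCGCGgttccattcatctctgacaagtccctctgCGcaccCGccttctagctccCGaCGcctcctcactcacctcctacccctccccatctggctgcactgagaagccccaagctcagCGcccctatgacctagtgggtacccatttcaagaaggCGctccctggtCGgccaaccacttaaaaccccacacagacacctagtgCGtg
Hoxd13: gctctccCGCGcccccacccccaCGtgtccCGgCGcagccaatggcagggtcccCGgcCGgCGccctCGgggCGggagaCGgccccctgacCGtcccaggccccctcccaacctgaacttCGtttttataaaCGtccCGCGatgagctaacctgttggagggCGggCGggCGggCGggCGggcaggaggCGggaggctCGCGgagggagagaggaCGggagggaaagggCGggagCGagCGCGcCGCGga
Hoxa5 has 28 CG dinucleotides, Hoxb4 has 14 and Hoxd13 has 31.

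RefSeq promoters were at hand for 22 Hox genes, with 24 start sites matched by symbol. Their median was 12.5 CG dinucleotides in the 250 bases, against 6 over all 32851 promoters. The 5 genes above the floor, Hoxa3, Hoxa5, Hoxa7, Hoxa9 and Hoxb4, had between 3 and 28, with a median of 14. The 13 genes analysed that were not above it on all arrays had between 2 and 35 over 15 start sites, with a median of 13. The ranges overlap over most of their length. On either strand, TATAAA was found in 4 of the 24 Hox entries (16.7%) and in 12.4% of all promoters, and CCAAT in 14 (58.3%) and 33.8%. TGATNNAT, letters of the kind bound by Hox and Pbx proteins together, was found in 4 (16.7%) and in 7.68% of all promoters. Of the 5 promoters of genes above the floor, TATAAA was found in 0, CCAAT in 1 and TGATNNAT in 0. Of the 15 start sites of genes not above it on all arrays, TATAAA was found in 2, CCAAT in 9 and TGATNNAT in 3. These matches describe letters only.

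Among the anterior genes, of paralog groups 1 to 3, Hoxb2 and Hoxa3 were above the floor throughout. Hoxb2, which acts in the hindbrain of the embryo, had intensities of 239 and 208 in the untreated arrays. Its values at 20, 40, 60, 120, 180 and 240 min were 242, 256, 257, 243, 233 and 253. The lowest value was that of untreated replicate 2, and the tamoxifen values overlapped with that of untreated replicate 1. Hoxa3, known for pharyngeal organs such as the thymus, had 201 and 213 untreated and 198, 186, 212, 209.7, 207 and 204 over the 6 times. Its second probe set, 1427433_s_at, lay between 178 and 214 and fell short of the floor on the 240 min array alone. The remaining genes of these groups were below the floor on every array: Hoxa2 lay between 88.7 and 104, Hoxb1 between 63.1 and 77.8, Hoxb3 between 148 and 167 and Hoxd1 between 63.1 and 68.0.

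Among the genes of paralog groups 4 to 8, which pattern the neck and trunk, Hoxa5 varied little. Hoxa5, which acts in the neck and lung, had 293 and 300.4 in the untreated arrays. It had 301, 317 and 309 at 20, 40 and 60 min and 328 at each of 120, 180 and 240 min. The late arrays all lay above the earlier ones, with a span from lowest to highest of 1.12-fold. The log2 difference of the late arrays from untreated was 0.14 ± 0.04 (SE), which did not pass (limma, adjusted p = 1.00, unadjusted p = 0.00912). Hoxa7 had 241 and 248 untreated and 231, 239, 266, 247, 236 and 253 over the times, with no order between the groups.

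Hoxb4, studied in blood stem cells as well as in the trunk, had 214 and 244 in the untreated arrays for probe set 1460379_at. Over the times this probe set had 203, 192, 205, 246, 238 and 200.4. Its 3 highest values were those of untreated replicate 2, 120 min and 180 min. The other Hoxb4 probe set, 1451761_at, lay between 124 and 144, below the floor on every array. Differences of Hoxb4 given below without a probe set are those of 1460379_at. Hoxc8, a gene of the thoracic region, had 199.5 and 212 untreated and 206, 187, 214, 241, 211 and 222 over the times, and its groups overlapped. The other genes of these groups did not stay above the floor. Hoxa4 lay between 131 and 182 for the probe set 1427354_at and between 85.8 and 94.6 for 1420226_x_at. Hoxb5 lay between 104 and 116, Hoxb7 between 70.1 and 78.9 and Hoxd8 between 108 and 130.0. Hoxb6 lay between 167 and 193, above the floor on 4 arrays.

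Hoxa9 was the one gene of paralog group 9 above the floor on all arrays, with 2 probe sets that did not move alike. Probe set 1455626_at had 239 and 223 untreated, 244, 272 and 289.6 in the first hour, and 219, 229 and 253 later. Probe set 1421579_at had 256 and 275 untreated, 227, 242 and 264 in the first hour, and 241, 239.7 and 244 later. The first-hour difference from untreated was 0.20 ± 0.08 (log2, SE) for the former and -0.11 ± 0.06 for the latter, and neither passed (limma, adjusted p = 0.395 and 0.487). Hoxc9, Hoxb9 and Hoxd9 lay between 176 and 199.8, between 147 and 200.0 and between 101 and 117.

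No gene of paralog groups 10 to 13, which pattern the lower body, the digits and the genital region, was above the floor on all arrays. Hoxd13, a gene of the digits, lay between 76.7 and 84.6, Hoxd10 between 76.8 and 84.1, Hoxd11 between 73.0 and 87.3 and Hoxd12 between 106 and 127. Hoxa10 lay between 64.3 and 74.7, Hoxa11 between 93.0 and 103 and Hoxa13 between 90.8 and 102. Hoxb13, known in tail and prostate, lay between 132 and 162. Hoxc13, the gene of hair and nail, had 169.6 and 179 in untreated arrays and 181, 169, 162, 194, 175 and 186 over the times, and was above the floor at 20, 120 and 240 min by a small margin.

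Nearest to the floor among those above it on all arrays were Hoxa3, Hoxc6 (1427361_at) and Hoxc8, with means of 1.12, 1.14 and 1.16 times the mean floor. Nearest among those not above it on all arrays were the Hoxa3 probe set 1427433_s_at at 1.07 and Hoxc9 at 1.04, each above the floor on 7 arrays, and Hoxb6 at 0.997, above it on 4. The count depends on where the floor is put. With the 95th percentile of the sensory receptors alone, between 124 and 133, 17 genes were above it on all arrays (62.9% of probe sets with a single symbol). These added Hoxa4, Hoxb3, Hoxb6, Hoxb9, Hoxb13, Hoxc4, Hoxc5, Hoxc9 and Hoxc13, and no Hoxd gene. With the 75th percentile of the panel 18 genes were above it, the same 17 and Hoxd8. With the median of each array, 6 genes were above it, without Hoxa3 and Hoxc8. With the highest value of the panel, between 695 and 807, the count was 0.

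**Figure D2:**
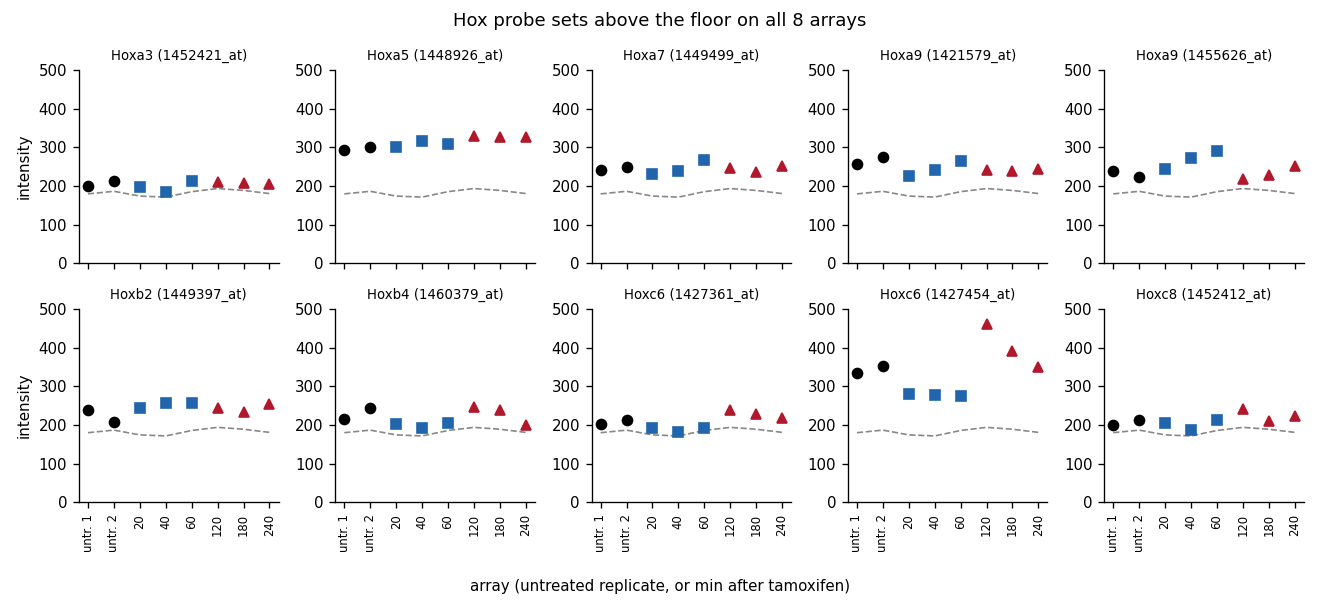
Intensity (linear, as deposited) on each array for the 10 Hox probe sets above the floor on all 8 arrays; circles are untreated, squares 20 to 60 min and triangles 120 to 240 min, and the dashed line is the floor. Hoxa5 stays between 293 and 328, while Hoxc6 probe set 1427454_at runs from 275 at 60 min to 462 at 120 min.

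Other genes of position were read from lists chosen with earlier results of these data known. None of 12 genes of limb and dorsoventral identity was above the floor on all arrays, where 54.5% of all genes were. Tbx3, known in mammary and limb development, lay between 166 and 207 and was above it on 4 arrays. Pitx1, a hind limb gene, lay between 119 and 141, and Tbx5, a forelimb gene, between 124 and 138. Of 16 homeobox genes known from the head, 3 were above it: Msx2 (304 to 384), Dlx3 (233 to 263), which also acts in epidermal differentiation, and Msx1 (204 to 234). Of 15 genes that flank the clusters or are related to them, 5 were above it: Atp5g3, Mtx2, Skap2, Hibadh and Snx10. Skap2, which lies beyond the Hoxa cluster, ranged from 720.4 to 1237. Its late arrays lay above the first-hour arrays by 0.46 on the log2 scale, which did not pass (limma, adjusted p = 0.223). Cdx1, Cdx2 and Cdx4, which drive trunk Hox genes in the embryo, were not above the floor on all arrays.

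Over all genes, 54.5% were above the floor on all arrays. Of 8 cofactor genes, 3 were: Pbx2 (312 to 356), Pbx3 (231 to 296) and Meis3 (219.7 to 267). Meis1 lay between 167 and 191. Of 22 chromatin regulators of Hox clusters, 19 were above it. Among them were Dpy30 (952 to 1174) and Ash2l (793 to 1183), subunits of complexes that methylate histone H3, and the Polycomb genes Phc2 (974 to 1052) and Eed (853 to 1012). Of 16 genes of retinoic acid and other posterior signals, 6 were above it. Crabp2, whose product binds retinoic acid, lay between 1433 and 1765, and the receptor gene Rarg between 856 and 975. Of 7 genes linked to Hox repression, 4 were above it, Ybx1, Yy1, Hdac2 and Gmnn. No gene of these lists passed in any of the 4 comparisons (limma, over all probe sets).

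The cells carried the marks of keratinocytes, with 12 of 13 markers above the floor, among them the basal keratins Krt14 (19681 to 20418) and Krt5 (17023 to 18181). All 6 melanocyte markers were above it too, with Dct, a pigment enzyme, between 3429 and 4065. Of 13 fibroblast markers 7 were above it, with Vim between 1321 and 1741 and Sparc between 1318 and 1863, while Dcn, Lum, Pdgfra, Prrx1 and Col3a1 were above it on no array. Of 9 leukocyte markers 0 were above it on all arrays, though H2-Ab1 was on 7, and of 6 endothelial markers 1 was, Egfl7. Over all genes the share above the floor on all arrays was 54.5%. In such bulk RNA, fewer cells of a type and less RNA per cell cannot be told apart, and the part of other cells in the Hox values was not tested.

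The spread of the Hox values over the 8 arrays differed between members. The SD of log2(intensity + 16), the scale of all differences given here, had a median of 0.0971 over the 10 Hox probe sets above the floor, with a range from 0.0603 (Hoxa3) to 0.254 (Hoxc6). Over all 10102 probe sets above the floor the median was 0.0834, lower than over the Hox probe sets. The median span from lowest to highest array was 0.31 (log2) for these 10 Hox probe sets and 0.24 for the 10102. A span of 2-fold was rare, with 0 of the 10 Hox probe sets and 55 of the 10102. By cluster, the median SD over all members was 0.0615 in Hoxa, 0.0783 in Hoxb, 0.113 in Hoxc and 0.0592 in Hoxd. All Hoxd probe sets lay below the floor.

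Since spread depends on brightness, each SD was also ranked among the probe sets nearest in mean. Hoxc6 had an SD above that of 97.2% (1427454_at), 97.0% (1427362_x_at) and 84.4% (1427361_at) of them, and Hoxc4 above 97.8%. Hoxb1, below the floor throughout, was above 98.0%. Also outside Hoxc, Hoxa4 (1427354_at), Hoxb9 and Hoxb4 (1460379_at) were above 93.4%, 90.4% and 83.8%. Within Hoxc, Hoxc8 was above 65.7% and Hoxc9 above 21.6%. Hoxa5, Hoxa7 and Hoxa3 (1452421_at) had an SD above that of 20.4%, 22.4% and 23.8% of theirs.

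**Figure D3:**
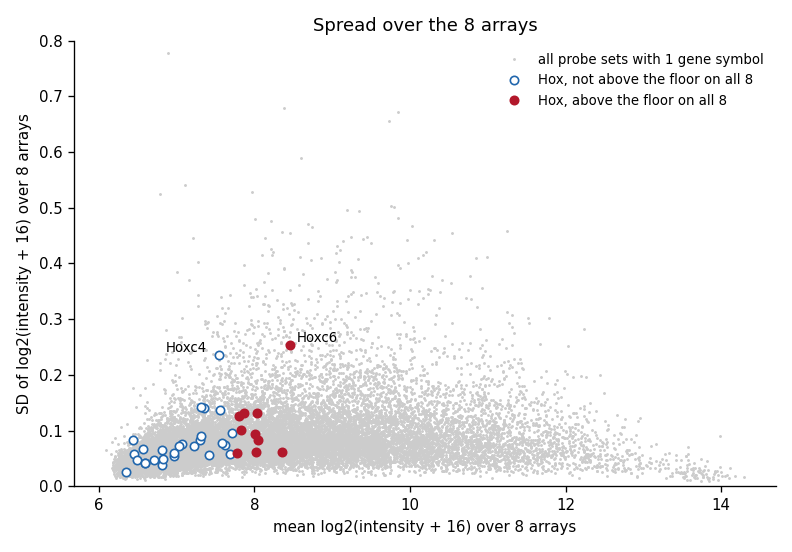
SD over the 8 arrays against mean, both of log2(intensity + 16), for all probe sets with a single symbol (grey), Hox probe sets above the floor on all arrays (filled) and other Hox probe sets (open). Hoxc6 (0.254) and Hoxc4 (0.235) have the widest spread of the 37.

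Arrays taken 20 to 60 min after tamoxifen were compared with untreated arrays, as were those taken 120 to 240 min after it, and with each other. Each window pools 3 times with 1 array each, so its spread includes the differences between times, and the comparisons with untreated share the same 2 untreated arrays. No Hox probe set passed an adjusted p of 0.05 in limma, and none of the 22626 probe sets tested did (0% in each comparison). Against untreated, 7 Hox probe sets had an unadjusted p under 0.05 at 20 to 60 min (11.9% of all probe sets), 2 higher (5.37% of all) and 5 lower (6.55%). At 120 to 240 min there were 4 (3.87% of all), 3 higher (1.44%) and 1 lower (2.44%). With all 6 tamoxifen arrays pooled there were 3 (4.12% of all), 1 higher (1.51%) and 2 lower (2.61%). Between the windows there were 9 (15.6% of all), 7 higher later (9.26%) and 2 lower (6.29%). These counts are of the 37 Hox probe sets, and each percentage is the share over all 22626 probe sets. The median log2 difference of the Hox probe sets between the windows was 0.0072, and over all probe sets 0.0074.

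Hoxc6, a gene of the thoracic region, had the largest difference of all Hox probe sets between the windows. Its probe set 1427454_at had 335 and 351 in the untreated arrays, 281, 277 and 275 at 20, 40 and 60 min, and 462, 391 and 349 at 120, 180 and 240 min. The first-hour values lay below all others, and the 120 min value was the highest. On the log2 scale the means were 8.49 ± 0.04 (SD, n = 2), 8.20 ± 0.01 (SD, 3 times) and 8.69 ± 0.19 (SD, 3 times). The late arrays lay above the first-hour arrays by 0.50 ± 0.08 (log2, SE), or 1.41-fold on that scale, and this did not pass (limma, adjusted p = 0.165, unadjusted p = 1.9e-04). Against untreated, the first-hour difference was -0.29 ± 0.09 (adjusted p = 0.368) and the late one 0.21 ± 0.09 (adjusted p = 1.00).

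The other probe sets of Hoxc6 moved in the same direction. Probe set 1427361_at had 201 and 211 untreated, 191, 181 and 192 in the first hour and 238, 228 and 219 later, a difference between windows of 0.26 ± 0.05 (log2, SE; limma, adjusted p = 0.177). Probe set 1427362_x_at, below the floor and of a kind that can share sequence with other genes, had 134 and 143, then 135, 131 and 126, then 171, 163 and 147. It differed by 0.27 ± 0.06 (adjusted p = 0.198). In all 3 probe sets the late values lay above the first-hour values without overlap, and the order among the late arrays was 120, 180 and then 240 min.

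Hoxc4 and Hoxc5 lie next to Hoxc6 in the cluster and were chosen for description after their values were seen. Hoxc4 had 162 and 214 in the untreated arrays, 154, 142 and 137 in the first hour and 219, 190.0 and 173 later. Its difference between windows was 0.38 ± 0.10 (log2, SE; limma, adjusted p = 0.216), and the untreated arrays differed from each other by 0.38 as well. Hoxc5, below the floor on all arrays, had 148 and 147, then 131, 137 and 132, then 159, 139 and 151, a difference of 0.15 ± 0.05 (adjusted p = 0.245). Further along the cluster, Hoxc8 differed by 0.14 ± 0.06 (adjusted p = 0.319), Hoxc13 by 0.11 ± 0.05 (adjusted p = 0.366) and Hoxc9 by 0.0072 ± 0.05 (adjusted p = 0.966).

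All 8 Hoxc probe sets were higher at 120 to 240 min than at 20 to 60 min, with a median of 0.20, and 6 had an unadjusted p under 0.05. Over all probe sets 54.2% were higher in this comparison, and 9.26% were higher with an unadjusted p under 0.05. In the same comparison 6 of 12 Hoxa probe sets, 3 of 10 Hoxb and 4 of 7 Hoxd were higher, with medians of 0.0040, -0.0053 and 0.0059. Late and first-hour values did not overlap for 7 Hox probe sets that were higher later, those of Hoxa5, Hoxc4, Hoxc5, Hoxc6 (3 probe sets) and Hoxd10, against 10.6% of all probe sets. They did not overlap for 1 that was lower later, Hoxd12, against 7.47%. Of the 7 higher later, 3 were above the floor on all arrays, and Hoxc5, Hoxd10 and Hoxc6 (1427362_x_at) were above it on none. Hoxd12 was above it on none either. The 8 Hoxc probe sets stand for 6 genes of the same cluster. The floor was 180 and 186 in the untreated arrays, 174, 171 and 185 in the first hour and 194, 189 and 181 later. Its windows overlapped, and whether its changes bear on the Hoxc values was not tested.

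**Figure D4:**
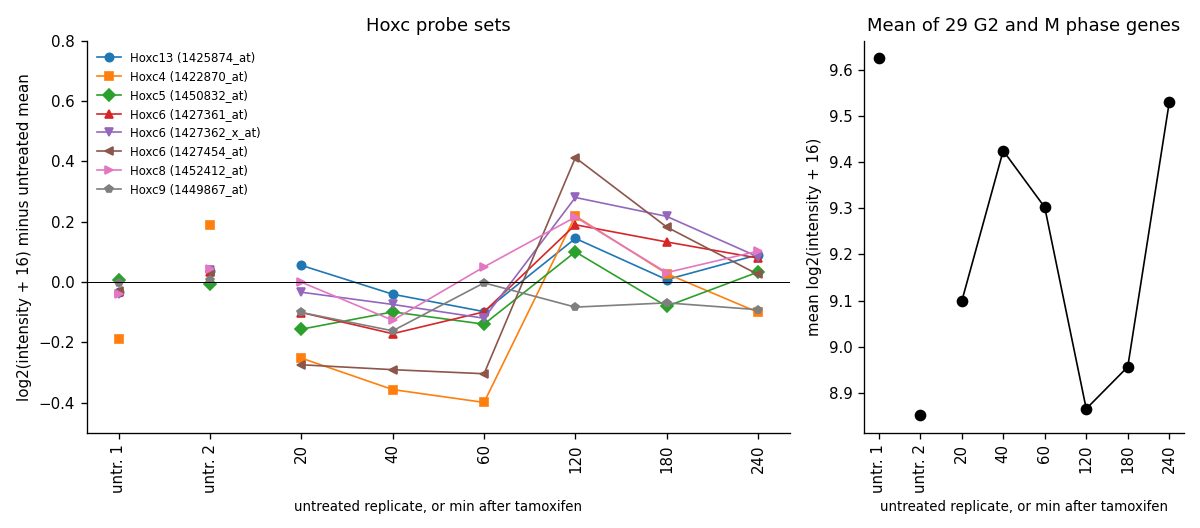
Left, log2(intensity + 16) of the 8 Hoxc probe sets on each array minus the mean of the untreated arrays; right, the mean log2(intensity + 16) of 29 genes of G2 and M phase on the same arrays, where lines join the tamoxifen times. The 3 Hoxc6 probe sets and Hoxc4 are highest at 120 min, where the cell cycle mean is 8.87, and their 20 to 60 min values all lie below their 120 to 240 min values.

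Cell cycle genes differed between arrays too. The mean of 29 genes of G2 and M phase was 9.63 and 8.85 (log2) in the untreated arrays and 9.10, 9.43, 9.30, 8.87, 8.96 and 9.53 over the 6 times. Its lowest values were those of untreated replicate 2, 120 min and 180 min. These were the 3 arrays with the highest values of Hoxc4 and of Hoxb4 probe set 1460379_at. They were also the highest for Hoxa3 probe set 1427433_s_at and for Hoxc6 probe set 1427454_at, with 351 in untreated replicate 2 and 349 at 240 min. Hoxc6 probe sets 1427361_at and 1427362_x_at were highest at 120, 180 and 240 min. The floor was highest on the same 3 arrays as the former. With the cell cycle mean as a covariate, the difference between the windows was 0.46 for Hoxc6 probe set 1427454_at (limma, adjusted p = 0.0185). For the other Hoxc6 probe sets it was 0.24 (adjusted p = 0.0249) and 0.24 (0.0295), and for Hoxc4 0.32 (0.0225). So 4 Hox probe sets passed, among 2.37% of all. Over the alternatives tried, the smallest adjusted p of a Hox probe set between the windows ran from 0.0185 to 0.541. At 20 to 60 min Hoxc4 alone passed with it (-0.32, adjusted p = 0.0298), among 2.67% of all. Hoxb4 (1460379_at) differed by 0.12 with the covariate (adjusted p = 0.172), against 0.17 ± 0.08 (SE) without it. The other Hoxb4 probe set, 1451761_at, differed by 0.02 ± 0.06 (SE) without it (limma, adjusted p = 0.907). The 3 highest values of 1451761_at were those of untreated replicate 2 (144), 180 min (142) and 40 min (138). Without the 240 min array, 5 Hox probe sets passed between the windows, those of Hoxc6, Hoxc4 and Hoxb4, among 5.77% of all. Of the fibroblast markers 10 of 13 were higher late than early, as were 5 of 6 endothelial and 6 of 9 leukocyte markers. So were 4 of 6 melanocyte and 8 of 13 keratinocyte markers, against 54.2% of all probe sets. None of these markers passed (limma). The mean of the fibroblast markers ran from 7.93 to 7.97 in the first hour and 7.98 to 8.05 later. The mean of the keratinocyte markers ran from 11.26 to 11.29 and from 11.28 to 11.41. The part of these cell types in the Hoxc values was not tested.

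**Figure D5:**
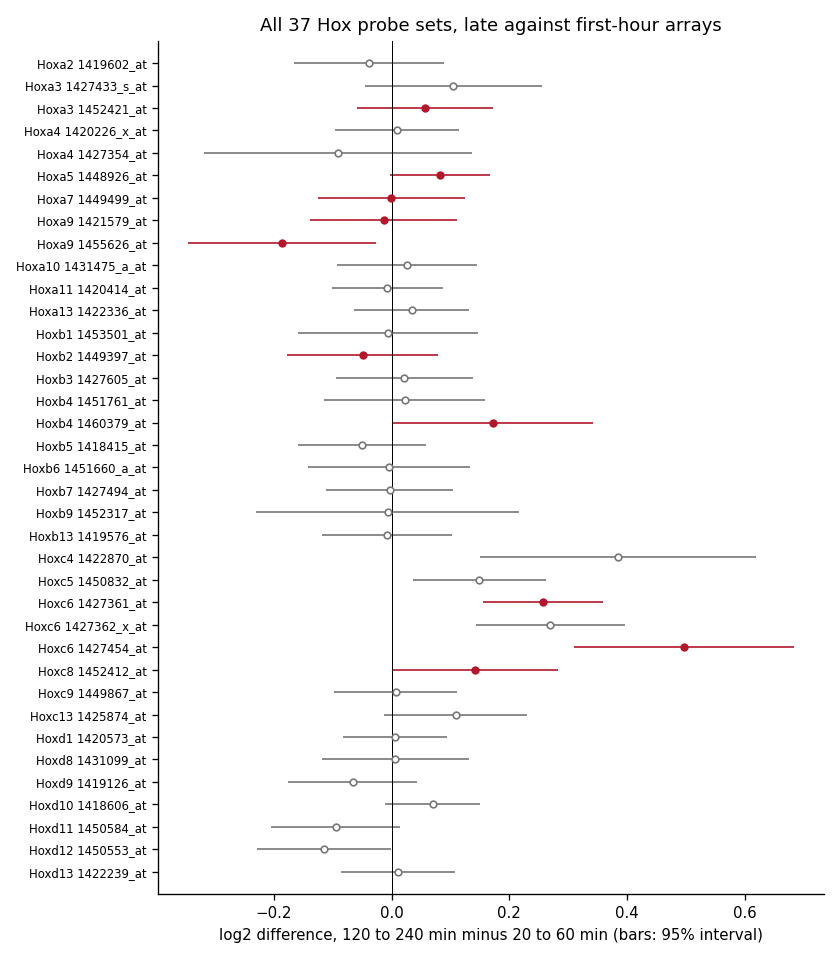
Log2 difference of the 120 to 240 min arrays from the 20 to 60 min arrays for all 37 Hox probe sets, with 95% intervals from limma that are not adjusted for the number of probe sets; filled points are above the floor on all arrays. The 3 Hoxc6 probe sets and Hoxc4 lie farthest from 0, at 0.26 to 0.50, and all other Hox probe sets, in every cluster, between -0.19 and 0.17.

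Apart from Hoxc6 and Hoxc4, the differences were small in every cluster. Between the windows they lay between -0.19 (Hoxa9, 1455626_at) and 0.17 (Hoxb4), and the interval for Hoxa7 ran from -0.13 to 0.12 around -0.0010. Hoxb2 was above untreated by 0.17 ± 0.06 (log2, SE) at 20 to 60 min and 0.12 ± 0.06 later (limma, adjusted p = 0.391 and 1.00), and the untreated arrays differed from each other by -0.19. Hoxa9 (1421579_at) lay below untreated by 0.13 ± 0.06 in the late arrays (adjusted p = 1.00). Over all 6 tamoxifen arrays, Hoxb13 was at -0.15 ± 0.05, Hoxa9 (1421579_at) at -0.12 ± 0.05 and Hoxb2 at 0.14 ± 0.06, each with an adjusted p of 0.973 in limma.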

How the data were processed

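The members, lists and tests were chosen with earlier results of these data known. Per the labels' protocols, RNA came from a Trizol extraction, and Affymetrix arrays were hybridised with biotinylated cRNA. The deposited values are linear intensities for each probe set. The authors' probe summary, array scaling and genome build are not given in the sources used here. No scaling was added, and values were taken to log2(intensity + 16), which understates changes of dim probe sets. Leaving out 64 control probe sets, 22626 were tested, and 20380 had 1 symbol in the platform annotation (691 had several, 1555 are unnamed here). All 37 members matched RefSeq by Entrez identifier.

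Tests used limma 3.58.1 in R 4.3.3 (lmFit, eBayes) over all 8 arrays. One fit had tamoxifen against untreated, another 3 windows (2 untreated arrays, 3 first-hour, 3 late), leaving 5 residual degrees of freedom. P-values were Benjamini-Hochberg adjusted over all probe sets. No filter on brightness was used, so that no member was dropped. A gene in a list is represented by its probe set with the highest mean, and counts above the floor use any probe set. The rule for named genes takes every Hox gene above the floor, the probe sets nearest to it, and up to 4 members of each list with the highest means, while genes named as absent, and Hoxc4 and Hoxc5, were added after their values were seen. Alternatives were other floors, pseudocounts, normalizations, filters, weights, a cell cycle covariate and leaving out each array. The fit was tested on simulated data. Promoters are RefSeq's.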

Additional observations from a re-analysis of the deposited data

How the results depend on the processing

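The number of Hox genes above the floor turned on the floor itself. It was 18 genes (23 probe sets) with the 75th percentile of the panel, 17 (22) with the 30th percentile of each array, 17 (20) with sensory receptors alone, 6 (7) with the array median and 0 (0) with the highest panel value. Counting probe sets above the floor on at least 1 array gave 13 genes (16). With the mean over arrays it was 9 (12), and after quantile normalization 8 (10). Leaving out 1 array gave 8 to 9 genes and 10 to 11 probe sets, the added gene being Hoxc9 without 120 min. The median SD lay between 0.0873 and 0.104 over all alternatives. Between the windows 5 Hox probe sets passed with array weights (2352 of all) and 4 with the cell cycle covariate (537 of all), and leaving out 1 array gave 0 to 5 (0 to 1305 of all, the highest without 240 min). At 20 to 60 min against untreated, the covariate gave 1 Hox probe set (603 of all), and leaving out 1 array gave 0 (0 to 3 of all). No Hox probe set passed in the other comparisons or alternatives. Over all probe sets, 1 passed with the intensity trend between the windows. At 120 to 240 min against untreated, 1 passed with the trend, with array weights and with the covariate, and leaving out 1 array gave 0 to 1. With all tamoxifen arrays, leaving out 1 gave 0 to 2. The cause of these changes was not tested.

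Small differences changed sign. With array weights, Hoxa7 was at -0.0116 (all tamoxifen), -0.0240 (20 to 60 min) and -0.0317 (120 to 240 min), Hoxc6 (1427361_at) at -0.0125 (all tamoxifen), and at 120 to 240 min Hoxa9 (1455626_at) at -0.00716, Hoxb4 at 0.0385 and Hoxc5 at -0.0432. Between the windows Hoxa9 (1421579_at) was at 0.0030 with weights and Hoxa7 at 0.00421 with the covariate. With the covariate Hoxc6 (1427361_at) was at -0.0040 (all tamoxifen), and Hoxa3 at -0.00794 and Hoxc4 at -0.00426 at 120 to 240 min. Median centring put Hoxb4 at 0.00393 there. Leaving out 1 array gave, for all tamoxifen, -0.0656 to 0.0148 (Hoxa3), -0.0203 to 0.0218 (Hoxa7), -0.332 to 0.0437 (Hoxc4), -0.0322 to 0.0400 (Hoxc6, 1427361_at) and -0.133 to 0.0106 (Hoxc6, 1427454_at). For 20 to 60 min it gave -0.0538 to 0.0432 (Hoxa7) and -0.0674 to 0.0243 (Hoxc8). For 120 to 240 min it gave -0.0375 to 0.0428 (Hoxa3), -0.0189 to 0.0281 (Hoxa7), -0.0407 to 0.0616 (Hoxa9, 1455626_at), -0.0941 to 0.0789 (Hoxb4), -0.139 to 0.236 (Hoxc4) and -0.0241 to 0.0661 (Hoxc5). Between the windows it gave -0.0412 to 0.0557 (Hoxa7) and -0.0623 to 0.0399 (Hoxa9, 1421579_at). The differences between the windows of Hoxc6, Hoxc4, Hoxc5 and Hoxc8 kept their sign in all alternatives that tested them, Hoxc6 (1427454_at) between 0.39 and 0.59. No paired analysis was possible because each tamoxifen time has 1 array. Signal near the floor limits what can be said of the dim members.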
